A study of Rattus norvegicus with 9 samples.

Results

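Matrix metalloproteinases are zinc-dependent proteases that cut collagens and other proteins of the extracellular matrix, and tissue inhibitors of metalloproteinases (TIMPs) bind their active sites and block them. Here 6 metalloproteinase genes (Mmp2, Mmp3, Mmp9, Mmp11, Mmp14 and Mmp19) and all 4 inhibitor genes (Timp1 to Timp4) were followed, 10 of the 14607 genes listed. They were chosen by symbol. Messenger RNA came from primary cultures of cardiomyocytes of newborn Sprague Dawley (SD) rats infected with 1 of 3 lentiviruses, each in 3 libraries. The groups were lenti-TCF7L2 (labelled as overexpression of TCF7L2 WT), lenti-shTCF7L2 (an shRNA against TCF7L2, labelled knock down) and lenti-NC (the vector control, genotype WT). Cells were exposed to virus for 16 h and kept for 48 h more in medium with serum, per the labels. TCF7L2 is a transcription factor of the Wnt pathway. The labels give neither the promoter of the vectors nor the species of the TCF7L2 insert, and do not say whether replicates were separate cultures, so p-values measure the spread between these libraries.

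Most metalloproteinases are made as inactive proenzymes that must be cut to work. In the textbook scheme the membrane-bound Mmp14 activates Mmp2 at the cell surface with Timp2 as the bridging partner, and an excess of Timp2 stops the reaction. Mmp2 and Mmp9 are the gelatinases, Mmp3 is a stromelysin that can activate other family members, and Mmp11 is activated inside the cell by furin. In the heart, cardiac fibroblasts and myocytes make Mmp2, Mmp9 is well known from leukocytes and macrophages, and the balance of proteases and inhibitors shapes matrix remodelling. RNA levels do not measure proenzyme activation or protease activity.

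Lenti-TCF7L2 cultures carried more RNA for 5 of the 6 metalloproteinases and for 2 of the 4 inhibitors, where 18.0% of all genes tested rose and 31.8% changed. The calls of Mmp11, Timp2 and Mmp14 among these were lost in 13, 11 and 4 of 20 other settings. Mmp9 and Timp1 rose most, about 3.08-fold and 2.53-fold over lenti-NC, and Mmp2, Mmp14 and Mmp19 rose by smaller amounts. In lenti-shTCF7L2 cultures Mmp9 moved the other way, to 0.520 of its lenti-NC level, and was the only member called in that comparison. Its call there was lost in 7 of 20 other settings, among them whenever a lenti-NC or lenti-shTCF7L2 library was left out. Timp3 lay below lenti-NC in all 3 lenti-TCF7L2 libraries, but did not pass the test. Mmp3 and Timp4 were near the detection limit.

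The libraries held 15085922 to 16478295 expected counts (estimated fragments per gene) each. Tcf7l2 itself averaged 144 CPM in lenti-TCF7L2, 27.3 CPM in lenti-shTCF7L2 and 36.8 CPM in lenti-NC, where CPM is the count scaled to library size with TMM factors. Its log2 difference from lenti-NC passed with lenti-TCF7L2 (1.97, edgeR adjusted p = 8.46e-04) and not with lenti-shTCF7L2 (-0.43, adjusted p = 0.511). Still, the lenti-shTCF7L2 libraries (25.6, 30.3 and 25.9 CPM) all lay below those of lenti-NC (40.0, 36.4 and 34.1 CPM), as for 21.0% of all genes. The fit shares its spread with lenti-TCF7L2, where the coefficient of variation of Tcf7l2 was 41.6%. The lowest Pearson's r between replicates was 0.948 within lenti-TCF7L2, 0.994 within lenti-shTCF7L2 and 0.994 within lenti-NC. Lenti-TCF7L2 replicate 3 stood apart: against the lenti-NC mean, the median log2 difference was -0.98 for genes longer than 8000 bases and 0.49 for genes no longer than 1000 bases. Replicate 1 of that group moved the same way by less (-0.33 and 0.14), and replicate 2 was at -0.01 and -0.07. For the members' differences that replicate 3 moved most, values without that library are given. The cultures were labelled cardiomyocytes, and all 8 cardiomyocyte markers examined were listed, with a summed level of 19284 to 23876 CPM in lenti-TCF7L2, 40175 to 40604 in lenti-shTCF7L2 and 42663 to 43681 in lenti-NC. The 9 fibroblast markers summed to 37204 to 44788 CPM in lenti-TCF7L2, 37593 to 39593 in lenti-shTCF7L2 and 34533 to 35698 in lenti-NC, so fibroblast transcripts were abundant in every library. In such bulk RNA, fewer cells of a type and less RNA per cell cannot be told apart.

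To set the genes beside sequence, the RefSeq promoter windows (build GRCr8, 250 bases before to 50 after the gene start) were read for the 6 members that had one: Mmp3, Mmp11, Timp1, Timp2, Timp3 and Timp4. The entries not matched were Mmp2, Mmp9, Mmp14 and Mmp19. Printed are Timp1, the inhibitor that rose most, Timp3, the inhibitor whose lenti-TCF7L2 libraries lay below lenti-NC, and Mmp3, the window with both an AP-1 and a TATA match. Capitals mark matches on either strand to the letters searched. The TCF/LEF letters were CTTTG followed by A or T and again by A or T. For AP-1 they were TGANTCA with C or G as the middle letter, for a GC box GGGCGG and for a TATA box TATAAA. The Ets letters were GGAAG with A or C before them.
Timp1, chrX:3771073-3771372, minus strand: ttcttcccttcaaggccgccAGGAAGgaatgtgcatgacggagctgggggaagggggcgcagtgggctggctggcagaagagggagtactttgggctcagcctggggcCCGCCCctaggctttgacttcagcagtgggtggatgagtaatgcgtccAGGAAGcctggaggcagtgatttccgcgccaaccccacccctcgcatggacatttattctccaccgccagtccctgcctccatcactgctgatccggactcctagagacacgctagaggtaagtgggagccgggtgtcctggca
Timp3, chr7:19459509-19459808, minus strand: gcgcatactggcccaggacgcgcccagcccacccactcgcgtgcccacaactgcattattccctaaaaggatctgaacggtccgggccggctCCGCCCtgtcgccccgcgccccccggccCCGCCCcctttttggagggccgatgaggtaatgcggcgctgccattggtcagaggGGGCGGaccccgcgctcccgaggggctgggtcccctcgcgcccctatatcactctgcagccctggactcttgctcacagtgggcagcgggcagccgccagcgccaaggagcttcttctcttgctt
Mmp3, chr8:12925031-12925330, plus strand: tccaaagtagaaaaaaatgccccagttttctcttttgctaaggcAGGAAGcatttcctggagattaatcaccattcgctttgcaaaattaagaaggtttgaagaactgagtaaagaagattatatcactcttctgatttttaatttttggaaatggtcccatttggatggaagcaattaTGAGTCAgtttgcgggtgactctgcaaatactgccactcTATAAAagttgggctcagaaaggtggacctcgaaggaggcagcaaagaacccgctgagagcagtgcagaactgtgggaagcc
None of the capitals overlap another motif. A GC box stood in the windows of Mmp11, Timp1, Timp2 and Timp3, and in 33.1% of all 33469 windows of the same length. The AP-1 letters were found in Mmp3, from base -71 to -65 before the start, with a TATA match from -32 to -27, against 4.63% and 14.2% of all windows. Ets letters were found in Mmp3, Timp1 and Timp4, against 45.5% of all windows. The TCF/LEF letters were in 0 of the 6 windows, against 17.1% of all windows, which says only that these letters are not in these 300 bases.

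Levels of different genes are compared in FPKM, the deposited unit that corrects for gene length and library depth. Mmp2 (Entrez gene 81686), gelatinase A, was the highest in every group, at 876 ± 72.3 FPKM in lenti-TCF7L2, 507 ± 8.45 in lenti-shTCF7L2 and 615 ± 25.9 in lenti-NC (SD, n = 3 libraries each). In lenti-shTCF7L2 and lenti-NC the next levels were, in this order, Timp2, Mmp14, Timp1, Timp3, Mmp19, Mmp11 and Mmp9, and each gene's libraries lay above those of the next gene. In lenti-TCF7L2, Timp1 stood next to Mmp2 at 678 ± 244 FPKM, above Mmp14 and Timp2. There the libraries of Mmp2 and Timp1 overlapped, as did those of Mmp14 and Timp2, of Timp3 and Mmp19, and of Mmp11 and Mmp9. Mmp3 and Timp4 averaged under 1 FPKM in every group, and their libraries overlapped in each.

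Mmp2 and Mmp14 made up 93.3% to 94.2% of the summed metalloproteinase FPKM in every library. The sum over the 6 metalloproteinases was 1386 ± 61.0 FPKM in lenti-TCF7L2, 832 ± 14.9 in lenti-shTCF7L2 and 946 ± 29.6 in lenti-NC. The sum over the 4 inhibitors was 1121 ± 183 FPKM in lenti-TCF7L2, 604 ± 7.13 in lenti-shTCF7L2 and 642 ± 17.8 in lenti-NC. Replicate 3 alone was at 1332 FPKM in lenti-TCF7L2, and the other libraries of that group were at 1013 and 1017. Metalloproteinase RNA divided by inhibitor RNA was 1.32, 1.43 and 1.02 in the 3 lenti-TCF7L2 libraries, 1.38, 1.39 and 1.35 in lenti-shTCF7L2, and 1.47, 1.48 and 1.47 in lenti-NC. The libraries of both TCF7L2 viruses thus lay below those of lenti-NC on this ratio, and the lowest value belonged to lenti-TCF7L2 replicate 3. The make-up of the inhibitors differed more. Timp1 was 51.6% to 72.1% of inhibitor FPKM in lenti-TCF7L2, against 40.6% to 41.7% in lenti-shTCF7L2 and 39.0% to 41.0% in lenti-NC, and without replicate 3 the highest lenti-TCF7L2 share was 54.2%. Timp3 was 1.45% to 5.48% of inhibitor FPKM in lenti-TCF7L2, 8.84% to 9.14% in lenti-shTCF7L2 and 9.25% to 10.0% in lenti-NC. These sums are descriptions and were not tested.

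**Figure D1:**
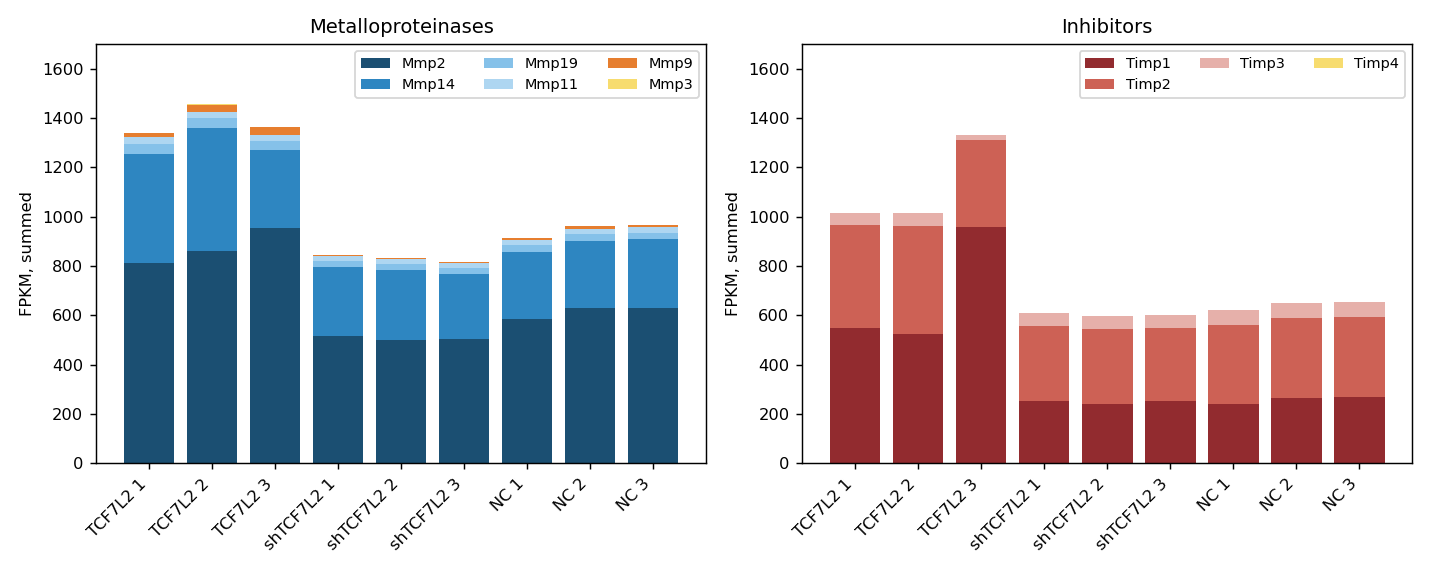
Summed FPKM of the 6 metalloproteinase genes (left) and the 4 inhibitor genes (right) in each of the 9 libraries, as stacked bars that start at 0, with lenti-TCF7L2 replicates first, then lenti-shTCF7L2 and lenti-NC. Mmp2 and Mmp14 fill most of every metalloproteinase bar, and Timp1 is the larger inhibitor block in the lenti-TCF7L2 libraries, up to 72.1% in replicate 3.

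With the overexpression virus the question is how these genes differ when TCF7L2 is raised. Of the 10 members, 9 passed the filter on low counts, 7 rose and 0 fell (edgeR quasi-likelihood test, adjusted p under 0.05), and the libraries of those 7 did not overlap between the groups. Over all 11761 genes tested, 18.0% rose, 13.8% fell and 31.8% changed in either direction. The libraries of the groups did not overlap for 46.8% of genes, lying wholly higher for 24.8% and wholly lower for 22.0%. The median log2 difference of the 9 tested members was 0.46, beside 0.03 over all genes tested. The count of members called in either direction was 9 without lenti-TCF7L2 replicate 3, where Timp3 passed as lower. It was 4 when lenti-NC replicate 1 or lenti-NC replicate 2 was left out. It was also 4 when lenti-shTCF7L2 was kept out of the fit, where Mmp2, Mmp9, Mmp19 and Timp1 passed. The count over all genes moved with the settings as well, as given in the closing section.

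Mmp9 (Entrez gene 81687), gelatinase B, was at 54.6, 81.9 and 88.3 CPM in the lenti-TCF7L2 libraries, against 23.5, 27.5 and 21.99 CPM in lenti-NC. Its lowest lenti-TCF7L2 library was above the highest lenti-NC library. The log2 difference was 1.62 (SE 0.17, adjusted p = 2.70e-04), larger in size than that of 97.9% of genes tested. It passed under all 20 alternatives, with values from 1.47 to 1.80, and was 1.47 without lenti-TCF7L2 replicate 3.

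Mmp2 was at 2459, 2604 and 2900 CPM in lenti-TCF7L2, against 1832, 1979 and 1973 CPM in lenti-NC. Every lenti-TCF7L2 library lay higher, and the log2 difference was 0.46 (SE 0.08, adjusted p = 0.00313). Mmp19 (Entrez gene 304608), a secreted protease that cuts basement membrane proteins, was at 78.2, 78.5 and 72.7 CPM in lenti-TCF7L2, against 58.9, 56.8 and 54.6 CPM in lenti-NC. It rose by 0.43 (SE 0.07, adjusted p = 0.00191) with the tightest replicates of the genes that rose, a coefficient of variation of 4.23% in lenti-TCF7L2. Both genes passed under all 20 alternatives.

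Mmp14 (Entrez gene 81707), the membrane-type protease that activates proMmp2, was at 1074, 1199 and 770 CPM in lenti-TCF7L2, against 677, 682 and 702 CPM in lenti-NC. All lenti-TCF7L2 libraries were higher, replicate 3 by the least. Its log2 difference was 0.56 (SE 0.14, adjusted p = 0.0152), and 0.71 (adjusted p = 8.98e-07) without lenti-TCF7L2 replicate 3. Leaving out lenti-NC replicate 1 gave an adjusted p = 0.0573, lenti-NC replicate 2 gave 0.0551 and lenti-TCF7L2 replicate 1 gave 0.0522. A fit without the lenti-shTCF7L2 libraries gave 0.0552.

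Mmp11 (Entrez gene 25481), stromelysin 3, was at 56.4, 60.8 and 54.0 CPM in lenti-TCF7L2, against 44.6, 48.5 and 50.6 CPM in lenti-NC. The lowest lenti-TCF7L2 library lay just above the highest lenti-NC library, and the log2 difference was 0.25 (SE 0.08, adjusted p = 0.0419). That call was lost in 13 of 20 alternatives, with adjusted p values up to 0.152. Without lenti-NC replicate 1, 2 or 3 the adjusted p was 0.152, 0.105 or 0.0650, and without lenti-TCF7L2 replicate 1 or 2 it was 0.0938 or 0.0856. Of the hairpin libraries, replicate 1 (0.0770), 2 (0.0686) and 3 (0.0774) each ended it when left out. In the RefSeq table Mmp11 overlaps Chchd10, a mitochondrial protein gene with 1974 to 3723 counts per library whose log2 difference was -0.65. The labels do not say that strand was used in counting, so reads of these overlapping genes may not be separated fully.

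Mmp3 (Entrez gene 171045), stromelysin 1, had 4, 43.95 and 22.91 expected counts in the lenti-TCF7L2 libraries, against 3, 3 and 8 in lenti-NC. The groups overlapped, since 1 lenti-TCF7L2 library held fewer counts than a lenti-NC library, and the log2 difference of 2.20 (95% interval 0.27 to 4.13) did not pass (adjusted p = 0.0774). It passed in 4 of 16 alternatives, among them those without lenti-TCF7L2 replicate 1 (2.68, adjusted p = 0.0171) or 3 (2.23, adjusted p = 0.0415). Its counts were not whole numbers in 3 libraries, and those of its close relative Mmp10 were not whole in 3, so the authors' counting may have split reads between them, and both levels are uncertain.

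**Figure D2:**
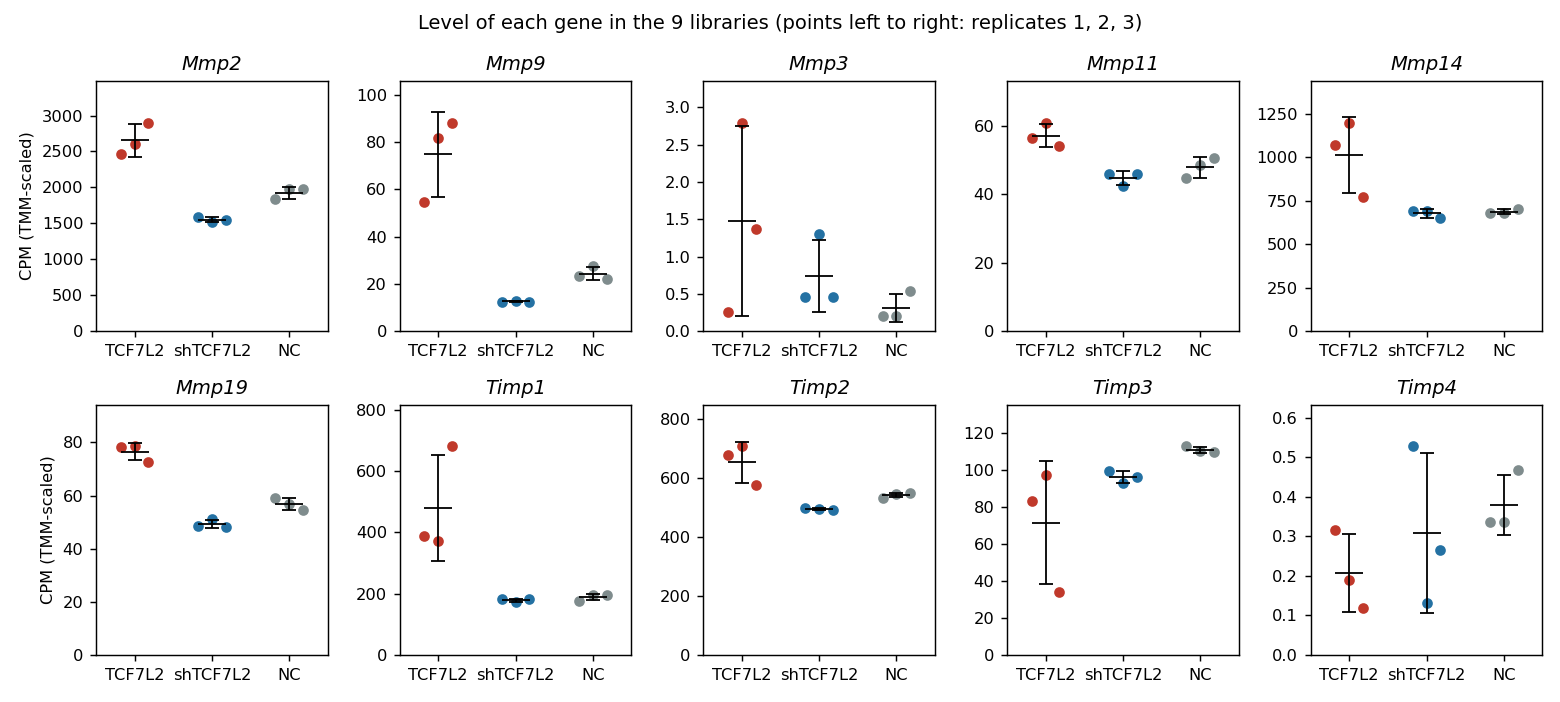
CPM of each of the 10 genes in every library, on linear axes from 0, with lenti-TCF7L2 left, lenti-shTCF7L2 in the middle and lenti-NC right. Points are replicates 1 to 3 and bars are mean ± SD. The panels of Mmp2, Mmp9, Mmp19 and Timp2 each show 3 separate groups. Lenti-TCF7L2 replicate 3 is the high point for Timp1 (680 CPM) and the low point for Mmp14 (770 CPM) and Timp3 (33.9 CPM).

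Among the inhibitors, Timp1 (Entrez gene 116510), a secreted inhibitor that is induced in many injured tissues and pairs with proMmp9, was at 387, 370 and 680 CPM in lenti-TCF7L2. In lenti-NC it was at 177, 194 and 196 CPM, and the groups did not overlap. The log2 difference was 1.34 (SE 0.21, adjusted p = 0.00160). It was 0.98 without lenti-TCF7L2 replicate 3 and 1.14 after the trend with gene length had been removed, and it passed under all 20 alternatives. At 740 bases Timp1 has the shortest length of the members in the files, and its level in replicate 3 moved the way short genes did in that library. The part of gene length in that value was not tested.

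Timp2 (Entrez gene 29543), the partner of Mmp14 in proMmp2 activation, was at 677, 707 and 575 CPM in lenti-TCF7L2, against 533, 547 and 548 CPM in lenti-NC. Here too the groups were close but apart. Timp2 rose by 0.27 on the log2 scale (SE 0.08, adjusted p = 0.0344), but passed in only 9 of 20 alternatives. It did not pass with the length trend removed (0.17, adjusted p = 0.236) or with lenti-shTCF7L2 kept out of the fit (0.26, adjusted p = 0.112). Leaving out a single lenti-NC library also ended the call, at 0.110, 0.0945 and 0.0929 for replicates 1, 2 and 3. So did leaving out lenti-TCF7L2 replicate 1 (0.106) or replicate 2 (0.0603), or any hairpin library (0.0653, 0.0655 and 0.0658). Without lenti-TCF7L2 replicate 3 the log2 difference was 0.33 (adjusted p = 1.76e-04).

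Timp3 (Entrez gene 25358), the inhibitor that stays bound to the matrix and also blocks several ADAM proteases, was at 83.3, 97.1 and 33.9 CPM in lenti-TCF7L2. The lenti-NC libraries held 113, 110 and 110 CPM, all higher than any lenti-TCF7L2 library. The log2 difference of -0.63 (95% interval -1.31 to 0.05) did not pass (adjusted p = 0.137), with replicate 3 far below the other two. Without lenti-TCF7L2 replicate 3 it was -0.31 and passed (adjusted p = 0.00233), and without lenti-TCF7L2 replicate 2 it was -0.94 and passed (adjusted p = 0.0291). Timp4 (Entrez gene 680130), an inhibitor known for its expression in adult heart, had 5, 3 and 2 counts in lenti-TCF7L2, 8, 2 and 4 in lenti-shTCF7L2 and 5, 5 and 7 in lenti-NC. It was below the filter and was not tested, and a floor of 3 counts leaves no difference detectable at this depth. Timp1, Timp3 and Timp4 overlap Syn1, Syn3 and Syn2 in the RefSeq table, and Timp2 overlaps Cep295nl. These neighbours held at most 49 counts in any library, few beside Timp1, Timp2 and Timp3 but more than Timp4, whose partner Syn2 had 18 to 38.

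**Figure D3:**
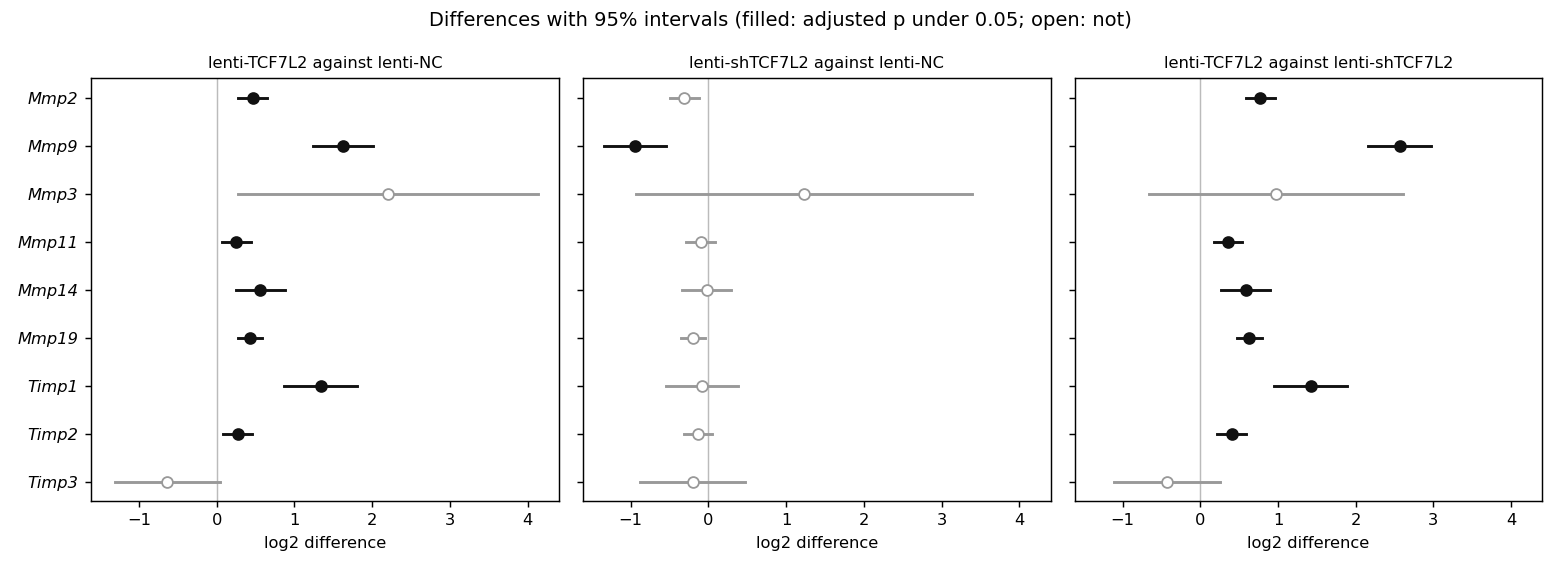
Log2 differences with 95% intervals for the 9 tested genes in the 3 comparisons, with filled points for an adjusted p under 0.05. Mmp9 is the only filled point left of 0, at -0.94 with lenti-shTCF7L2, and Mmp3 has the widest intervals.

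For the hairpin virus the same genes were set against lenti-NC. Of the 9 tested members, 1 fell and 0 rose, with 3 at an unadjusted p under 0.05 in edgeR and 2 called in DESeq2, which called 5.54% of all genes. Over all genes tested, 2.32% fell, 1.32% rose and 3.64% changed in either direction, and 16.1% had an unadjusted p under 0.05. The median log2 difference of the tested members was -0.13, beside 0.01 over all genes. For 5 members all lenti-shTCF7L2 libraries lay below all lenti-NC libraries and for 0 above, where the same held for 21.0% and 19.9% of all genes (40.9% in either direction). The differences were mostly small: apart from Mmp9 and Mmp3 they ran from -0.31 to -0.02.

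Mmp9 was at 12.54, 12.9 and 12.47 CPM in lenti-shTCF7L2, against 23.5, 27.5 and 21.99 CPM in lenti-NC. The lenti-shTCF7L2 libraries lay close together and below all lenti-NC libraries. Mmp9 fell by 0.94 on the log2 scale (SE 0.18, adjusted p = 0.0214), larger in size than 98.2% of genes tested. The value held between -1.01 and -0.77 in 20 alternatives, but its adjusted p rose to 0.0688, 0.101 and 0.0668 without lenti-NC replicates 1, 2 and 3, and to 0.0951, 0.10 and 0.102 without lenti-shTCF7L2 replicates 1, 2 and 3. It was 6.01e-08 when the lenti-TCF7L2 libraries, from which the 9-library fit draws part of its spread, were kept out.

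Mmp2 was at 1586, 1523 and 1552 CPM in lenti-shTCF7L2, against 1832, 1979 and 1973 CPM in lenti-NC. Its groups did not overlap and its log2 difference was -0.31, with an adjusted p = 0.0821. It passed in DESeq2 (adjusted p = 0.00676), with the lenti-TCF7L2 libraries kept out (4.09e-06) and without lenti-TCF7L2 replicate 3 (8.27e-04). Mmp19 was at 48.6, 51.2 and 48.2 CPM in lenti-shTCF7L2, again below all lenti-NC libraries, with a log2 difference of -0.20 (adjusted p = 0.170). Timp2 (-0.13) and Timp3 (-0.20) also lay below lenti-NC in all 3 libraries without passing, and all 3 of these passed without lenti-TCF7L2 replicate 3, at adjusted p = 0.0213, 0.0409 and 0.0243. The count of members called was 5 without that library and 5 with all lenti-TCF7L2 libraries kept out. It was 0 without any single lenti-NC library or any single lenti-shTCF7L2 library. With all lenti-TCF7L2 libraries kept out, the count over all genes rose as well, as given in the closing section. The count over all genes also moved when a single library was left out, over the range given there. These shifts in the count of members are therefore not particular to the members.

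Mmp14 and Timp1, which rose with lenti-TCF7L2, did not pass with the hairpin. Mmp14 was at 692, 690 and 650 CPM in lenti-shTCF7L2, against 677, 682 and 702 CPM in lenti-NC, with a 95% interval of -0.34 to 0.29 around a log2 difference of -0.02. Timp1 was at 182, 173 and 181 CPM in lenti-shTCF7L2, against 177, 194 and 196 CPM in lenti-NC, and its interval ran from -0.55 to 0.38. Those intervals are wide enough to hold a change of the size seen for Mmp2. Mmp11 differed by -0.10 with overlapping libraries, and Mmp3 had 6.74, 20 and 7 counts in lenti-shTCF7L2 (adjusted p = 0.640).

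**Figure D4:**
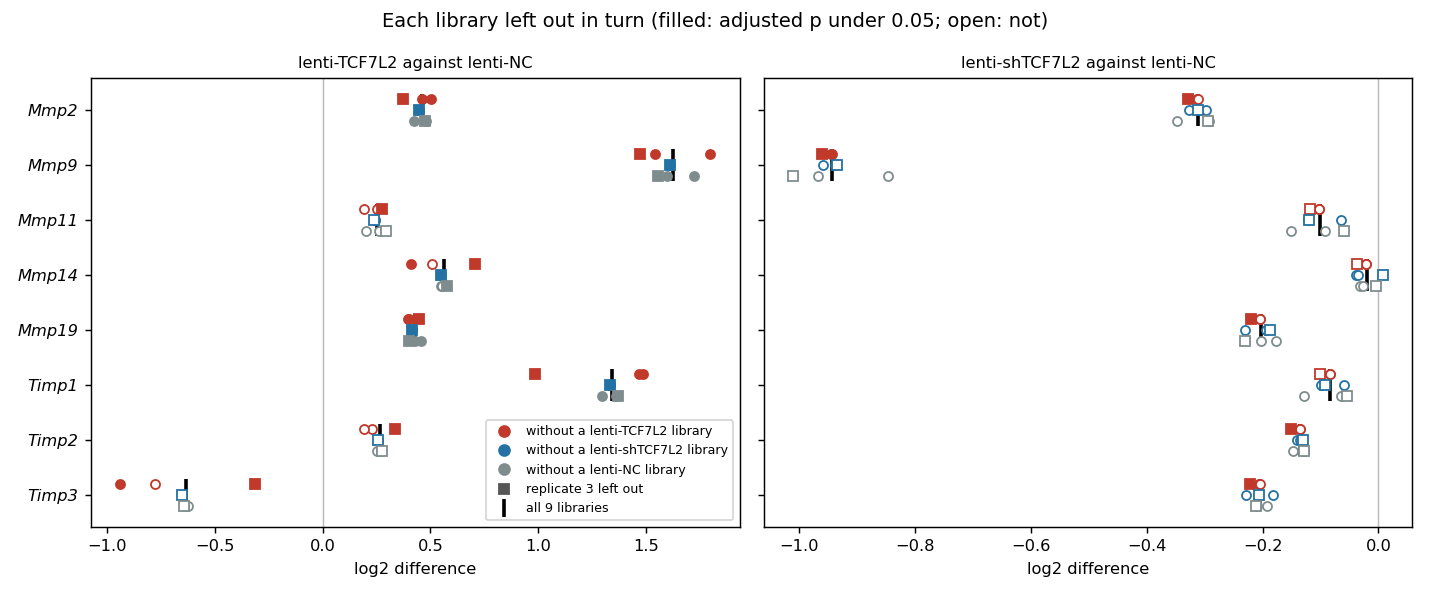
Log2 differences of 8 genes with each of the 9 libraries left out in turn, for lenti-TCF7L2 against lenti-NC (left) and lenti-shTCF7L2 against lenti-NC (right). Black bars mark the value from all libraries, squares leave out a replicate 3, and filled points have an adjusted p under 0.05. Mmp9 and Timp1 stay filled throughout the left panel, whereas on the right Mmp9 is open whenever a lenti-NC or lenti-shTCF7L2 library is missing.

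Set directly against each other, lenti-TCF7L2 and lenti-shTCF7L2 differed in 7 of the 9 tested members, all higher with lenti-TCF7L2, beside 18.4% of all genes higher, 14.7% lower and 33.1% changed in either direction. The libraries of those 7 did not overlap, as in 47.2% of all genes (24.1% higher and 23.2% lower). The median log2 difference of the tested members was 0.63, beside 0.001 over all genes. Mmp9 differed by 2.57 (SE 0.18, adjusted p = 2.84e-05), a 5.93-fold difference. Timp1 differed by 1.42 (SE 0.21, adjusted p = 9.74e-04) and Mmp2 by 0.77 (SE 0.08, adjusted p = 1.83e-04). Mmp19 (0.63), Mmp14 (0.58), Timp2 (0.40) and Mmp11 (0.36) were also higher with lenti-TCF7L2. Among those 7, only 2 calls were ever lost, that of Mmp11 without lenti-shTCF7L2 replicate 2 (adjusted p = 0.0524) and that of Mmp14 without lenti-shTCF7L2 replicate 3 (0.0509). Without lenti-TCF7L2 replicate 3 the log2 difference of Timp1 was 1.08 (adjusted p = 1.75e-08). Mmp3 and Timp3 did not pass, and that of Timp3 was -0.43 with all libraries and -0.09 without lenti-TCF7L2 replicate 3 (adjusted p = 0.291). The comparisons share libraries, so they do not support one another.

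Replicates within lenti-shTCF7L2 and lenti-NC were tight for the abundant members. For the 8 members other than Mmp3 and Timp4, the coefficient of variation of CPM was 0.638% to 4.55% in lenti-shTCF7L2 and 1.52% to 11.7% in lenti-NC. In lenti-TCF7L2 it was 4.23% to 46.5%, led by Timp3 (46.5%), Timp1 (36.3%), Mmp9 (23.9%) and Mmp14 (21.8%). Mmp9 had its low library in replicate 1, and the other 3 had their odd library in replicate 3.

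Outside the 10 members the metalloproteinase family did not move in a single direction. Of 16 further family genes looked for, 10 were listed and 7 tested. Of these, 2 rose and 3 fell with lenti-TCF7L2 against lenti-NC (median -0.23), beside 18.0% and 13.8% of all genes tested. Mmp12, the macrophage elastase, was at 122, 107 and 105 CPM in lenti-TCF7L2, against 27.0, 28.2 and 31.5 CPM in lenti-NC, and rose by 1.94 (SE 0.10, adjusted p = 2.37e-05). It exceeded Mmp9 in size here, yet with lenti-shTCF7L2 it differed by 0.01 only (adjusted p = 0.982). Mmp23 rose by 0.56 (adjusted p = 0.00499), while the membrane-type Mmp15 fell, with a log2 difference of -0.90 (adjusted p = 7.96e-04). Mmp17 (-0.49) and Mmp28 (-0.92), named after their values were seen, fell too. With lenti-shTCF7L2 against lenti-NC, 0 of the 7 passed in edgeR or DESeq2, with 1 at an unadjusted p under 0.05. Between the TCF7L2 viruses 2 were higher with lenti-TCF7L2, Mmp12 (1.93) and Mmp23 (0.45), and 2 were lower, Mmp15 (-0.69) and Mmp28 (-1.0). Mmp13, a collagenase also named after its counts were seen, was not tested, with 11, 10 and 14 counts in lenti-TCF7L2, 3, 4 and 1 in lenti-shTCF7L2 and 2, 4 and 3 in lenti-NC.

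Genes that act around the metalloproteinases were counted in lists by role. Over all genes tested, 18.0% rose and 13.8% fell with lenti-TCF7L2 against lenti-NC. With lenti-shTCF7L2 against lenti-NC, 1.32% rose and 2.32% fell. Of 5 tested genes in a list of other inhibitors and clearance receptors, which also holds the proteinase enhancer Pcolce, 3 rose with lenti-TCF7L2 against lenti-NC: the broad protease inhibitor A2m (0.71), Pcolce, which enhances procollagen C-proteinase (0.45), and the membrane inhibitor Reck (0.51). The first 2 were also higher than with lenti-shTCF7L2, by 1.15 and 0.57, and with lenti-shTCF7L2 against lenti-NC 0 of the 5 passed in edgeR or DESeq2 (1 at an unadjusted p under 0.05). Lrp1, the endocytic receptor, differed by -0.17 and Pcolce by -0.12 there. Of 12 genes of the plasminogen system, the proprotein convertases and the inducer Bsg (basigin), which did not pass in any comparison, 6 rose and 2 fell with lenti-TCF7L2 (median 0.25). Plau, the urokinase that makes plasmin and so can activate proenzymes, rose by 1.95 (SE 0.21, adjusted p = 2.71e-04) and the convertase Pcsk5 by 0.80. Furin, the convertase that processes Mmp11 and Mmp14, had a log2 difference of -0.23 (adjusted p = 0.0554) and was chosen after its value was seen. With lenti-shTCF7L2 2 of the 12 rose, the tissue plasminogen activator Plat (0.51) and the urokinase receptor Plaur (0.61). Between the TCF7L2 viruses 3 were higher and 3 lower with lenti-TCF7L2, with Pcsk5 (1.13) and Plau (1.67) among those higher.

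Of 15 tested ADAM and ADAMTS family genes, among them the ADAMTS-like Adamtsl4 that has no protease domain, 3 rose and 2 fell with lenti-TCF7L2 (median 0.13). That share is near the 31.8% of all genes that changed. Adamts4, an aggrecanase, rose by 1.34, Adam15 rose by 0.35 and Adam19 fell by 0.71. With lenti-shTCF7L2 0 passed in edgeR or DESeq2, with 4 at an unadjusted p under 0.05, and the most abundant genes of the list, Adam19 and Adamts2, differed by 0.16 (adjusted p = 0.750) and -0.26 (adjusted p = 0.535). Between the TCF7L2 viruses 5 were higher and 2 lower with lenti-TCF7L2, with Adamts4 (1.44) and the sheddase Adam17 (0.36) higher and Adam19 (-0.87) lower. Taking these lists as 39 genes, 14 rose and 7 fell with lenti-TCF7L2 against lenti-NC. The total of 21 became 13 without lenti-NC replicate 3. The 2 called with lenti-shTCF7L2 against lenti-NC became 16 without lenti-TCF7L2 replicate 3, and 1 without lenti-NC replicate 2 or 3 or any single lenti-shTCF7L2 library. The counts over all genes also moved when 1 library was left out, over the ranges given in the closing section, so these shifts are not particular to the lists.

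Matrix proteins that these proteases cut were counted in the same way. Of 14 tested, 3 rose and 3 fell with lenti-TCF7L2 (median 0.03), beside 18.0% and 13.8% of all genes tested. With lenti-shTCF7L2, 1.32% of all genes rose and 2.32% fell. Spp1 (osteopontin) rose by 1.35, the proteoglycan Dcn by 0.90 and Tnc (tenascin C) by 0.91. With lenti-shTCF7L2, 2 fell and 0 rose, Dcn by 0.94 and Spp1 by 0.38 on the log2 scale. Between the TCF7L2 viruses 3 were higher and 1 lower with lenti-TCF7L2, with Spp1 (1.73), Dcn (1.84) and Bgn (0.49) higher. Col1a1, the main fibrillar collagen chain, differed by 0.28 with lenti-TCF7L2 (adjusted p = 0.0681) and by 0.36 with lenti-shTCF7L2 (adjusted p = 0.109), and was picked after its values were seen.

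Marker lists of the cell types that such cultures can hold differed between the groups to unequal degrees. Over all genes tested, 18.0% rose and 13.8% fell with lenti-TCF7L2 against lenti-NC. With lenti-shTCF7L2 against lenti-NC, 1.32% rose and 2.32% fell. The 9 macrophage and leukocyte markers summed to 75.2 to 82.5 CPM in lenti-TCF7L2, 45.2 to 48.4 in lenti-shTCF7L2 and 42.6 to 44.1 in lenti-NC, and 5 of 8 tested rose with lenti-TCF7L2 against lenti-NC. Of these markers, picked here after their values were seen, Cd68 rose by 1.17 and Fcer1g by 1.43, Adgre1 (-0.11) and Lyz2 (-0.16) did not pass, and C1qa held at most 4 counts in any library. With lenti-shTCF7L2 against lenti-NC, Lyz2 (1.22) and Csf1r (1.32) rose, Cd68 (-0.33), Tyrobp (-0.42), Ptprc (-0.45) and Adgre1 (-0.61) did not pass, and the list's median was -0.17. Lyz2 averaged 10.3 CPM in lenti-shTCF7L2 and 4.43 CPM in lenti-NC, and without it the mean sum would be lower in lenti-shTCF7L2 than in lenti-NC. The endothelial list summed to 152 to 225 CPM in lenti-TCF7L2, 81.6 to 83.7 in lenti-shTCF7L2 and 77.3 to 99.9 in lenti-NC, and 8 of 9 rose with lenti-TCF7L2 (median 1.97). The exception was Kdr, the largest part of the lenti-NC sum, picked after its values were seen. It averaged 34.6 CPM in lenti-TCF7L2 and 48.9 CPM in lenti-NC (-0.50) and did not pass. Of the 9 fibroblast markers, 4 rose and 1 fell with lenti-TCF7L2, and 3 fell with lenti-shTCF7L2, among them Tcf21 (-1.01). For 7 of the 9, all lenti-shTCF7L2 libraries lay below all lenti-NC libraries and for 1 above, beside 21.0% and 19.9% of all genes. Col1a1, picked after its values were seen, averaged 23413 CPM in lenti-shTCF7L2 and 18260 CPM in lenti-NC. Without it the mean fibroblast sum would be lower in lenti-shTCF7L2 than in lenti-NC. Of the 8 cardiomyocyte markers 7 fell with lenti-TCF7L2 and 0 changed with lenti-shTCF7L2 in edgeR (1 at an unadjusted p under 0.05 and 1 called in DESeq2). Smooth muscle and pericyte markers summed to 6880 to 8007 CPM in lenti-TCF7L2, 7363 to 7529 in lenti-shTCF7L2 and 7575 to 7670 in lenti-NC, with 2 of 9 higher in lenti-TCF7L2 and 1 higher in lenti-shTCF7L2. The part of these cell types in the changes of Mmp9, Timp1 and the other members was not tested.

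**Figure D5:**
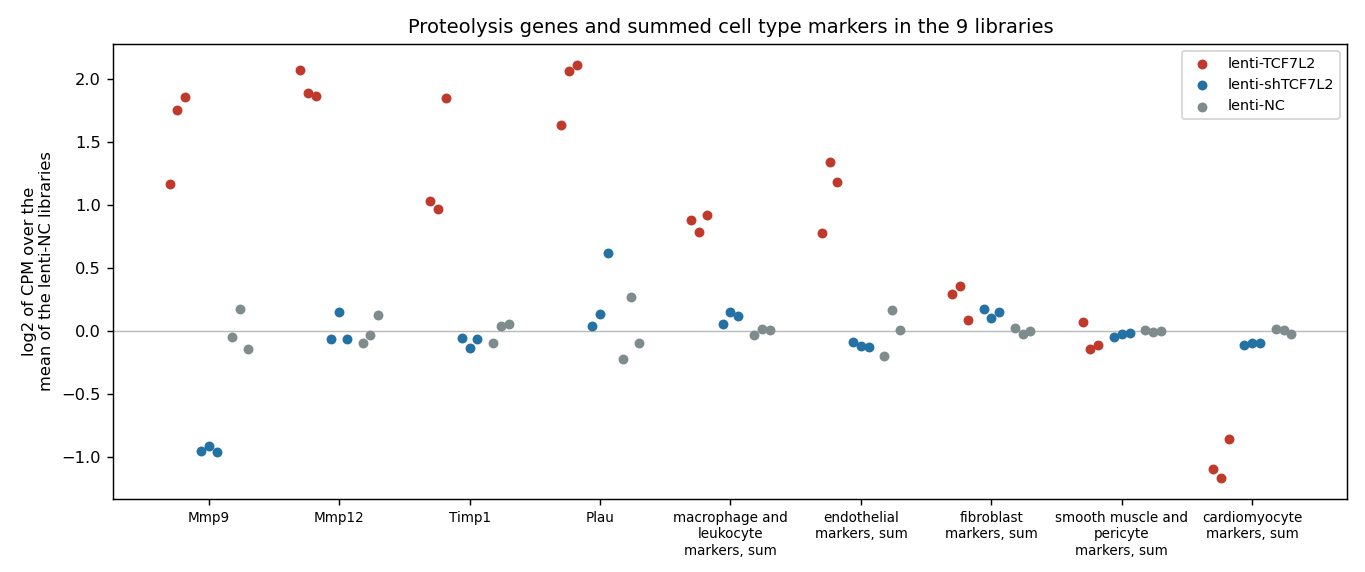
Log2 of CPM over the lenti-NC mean in each library for Mmp9, Mmp12, Timp1 and Plau, and for the summed markers of 5 cell types, with lenti-TCF7L2 left, lenti-shTCF7L2 in the middle and lenti-NC right within each column. Lenti-shTCF7L2 lies below lenti-NC for Mmp9 and, by less, for the cardiomyocyte sums and the smooth muscle and pericyte sums. It lies above lenti-NC for the macrophage and leukocyte sums and for the fibroblast sums. Of the 9 fibroblast markers only Col1a1 lay wholly above lenti-NC, and 7 lay wholly below. The cardiomyocyte sums are lowest in lenti-TCF7L2.

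For each member that changed in any comparison, the genes with the most similar profile over the 9 libraries were found among 10213 genes averaging at least 50 counts. Likeness was the root mean square difference between log2 CPM profiles centred on lenti-NC. Mmp9 was nearest to St6galnac2, a sialyltransferase (0.17), and Prg4, the lubricin gene (0.21). St6galnac2 had log2 differences of 1.68 with lenti-TCF7L2 and -0.91 with lenti-shTCF7L2, and Prg4 had 1.44 and -0.80. Timp1 was nearest to Sdc4, a cell surface proteoglycan (0.14), and Micalcl (0.16). Mmp2 lay closest to Fbxl5 (0.047) and Sts (0.053), and Mmp14 to Dlg4 (0.067) and Pear1 (0.073). For Mmp19 these were Sh3bp1 (0.048) and Col6a2, a collagen VI chain (0.049). Mmp11 was matched by Ltbp3 (0.055) and Fam189b (0.057), and Timp2 by the collagen lysyl hydroxylase Plod2 (0.047) and the fatty acid transporter Slc27a1 (0.050). These likenesses are descriptions without a test.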

How the data were processed

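Messenger RNA selected with oligo(dT) beads was sequenced on a BGISEQ-500, per the labels. The tools named in the submitters' processing notes are RSEM 1.3.1, Bowtie2, HISAT2 and DESeq2 1.4.5, with build rn6. Their roles and order are not given in the sources used here. For each library the deposited table holds expected counts (not normalised) and FPKM values for each gene, as the authors made them, beside gene length, per the file headers. Genes absent from a table were set to 0. Positions of another build were used only for the RefSeq promoter windows and to find the RefSeq genes that overlap a member.

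Expected counts were rounded and genes filtered with filterByExpr on the 3 groups (11761 of 14607 kept). TMM scaling and the 2-sided quasi-likelihood test of edgeR 4.0.16 (R 4.3.3) were applied in 1 fit of the 9 libraries, with no term besides group, and p-values were adjusted by Benjamini and Hochberg over all genes tested. An adjusted p under 0.05 was called. Standard errors come from the log2 difference and F. Depth was 15085922 to 16478295 counts per library, and 3 counts correspond to 0.182 to 0.199 CPM, a floor that covers counting error only.

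All 10 members are named. Of the other lists, up to 3 called genes per list and comparison with the smallest adjusted p are named, or the 2 with the highest mean where none passed, and 2 nearest profiles for each called member. A gene that this rule names is not reported here. The members and lists were chosen with earlier results of these data known. Other settings were upper-quartile or RLE scaling, a filter left off or set to 10 counts in 6 libraries or more, and DESeq2 1.42.0. Also tried were limma 3.58.1 on log2 FPKM (pseudocount 1 with and without a minimum mean FPKM of 1, or 0.1 with it), a replicate block, a fit of the 6 libraries compared alone, removal of a length trend (lowess, span 0.3) and each library left out. The procedure was tested on simulated counts with the same spread for every gene, no length trend and no outlying library. That test therefore does not cover these features of the lenti-TCF7L2 libraries. Replicate numbers were checked for pairing, and no block entered the comparisons.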

Additional observations from a re-analysis of the deposited data

How the results depend on the processing

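Over 529 values of single members under other settings, 473 kept their direction and side of the threshold, 37 lost and 15 gained a call, and 4 changed sign. The 4 all concern Mmp14 in lenti-shTCF7L2 against lenti-NC, not called in any setting: 0.010 in each of the 3 limma fits on FPKM and 0.0078 without lenti-shTCF7L2 replicate 3. With 1 library left out it ran from -0.0379 to 0.0078. When the third group was kept out of the fit, lenti-TCF7L2 against lenti-NC gave 2321 genes called, 4 members and 12 other proteolysis genes, against 3738, 7 and 21. Lenti-shTCF7L2 against lenti-NC then gave 3294 genes, 5 members and 22 other proteolysis genes, against 428, 1 and 2. In that comparison DESeq2 called 651 genes and 2 members, removal of the length trend 990 genes and 7 other proteolysis genes, and limma on FPKM without a filter 0 members (edgeR had 3 at an unadjusted p under 0.05). Leaving out 1 library gave 2430 to 5481 genes, 4 to 9 members and 13 to 29 other proteolysis genes for lenti-TCF7L2 against lenti-NC. For lenti-shTCF7L2 against lenti-NC these were 88 to 2056, 0 to 5 and 1 to 16. For lenti-TCF7L2 against lenti-shTCF7L2 the counts of members ran from 6 to 7. The causes were not tested.

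Libraries that share a replicate number had residual correlations from -0.0674 to 0.151, with 2 of 9 over 0.1. Of 18 matches with another group, 9 were highest for the own number. These values do not settle whether libraries of the same number were prepared together, and the labels do not say. With the replicate number as a block, lenti-TCF7L2 against lenti-NC had 3467 genes and 6 members called. The hairpin virus against lenti-NC had 244 genes and 1 member, and both TCF7L2 viruses against each other 3650 genes and 7 members. Depth limits Mmp3 and Timp4, whose highest counts were 43.95 and 8.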
